A study of Homo sapiens with 24 samples.

Results

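BCYRN1, RN7SL1, RN7SL2, RN7SL3, RN7SK, RMRP, RPPH1 and VTRNA1-1 are 8 short noncoding RNA genes transcribed by RNA polymerase III. Here they were followed across 24 RNA-seq libraries of a glioblastoma cell line treated or not with the topoisomerase II poison etoposide. The members were chosen by name, with the high BCYRN1 counts and their response to etoposide in WT cells of the DAXX series already known, and were looked up by matching the Ensembl gene IDs of the count table to GENCODE symbols. Of the 8, 5 had a matching ID among the 57736 gene IDs of the table (BCYRN1, RN7SL2, RN7SL3, RN7SK and VTRNA1-1), and RN7SL1, RMRP and RPPH1 were not analysed here. Of these 5, 4 passed the filter on low counts and could be tested. Among the 5 members with an ID, the description "abundant" held for BCYRN1 alone. It had more counts than any other gene in 24 of 24 libraries. RN7SL2 ranked between 1218 and 6501, RN7SL3 between 4674 and 10864, RN7SK between 6248 and 11436 and VTRNA1-1 between 14848 and 22696.

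The cells were U87-T, human U87 glioblastoma cells transduced with the telomerase gene TERT. WT cells carried an empty Cas9 lentiviral vector and the TERT transgene, DAXX_KO and ATRX_KO were each 1 CRISPR-made single-cell clone positive for alternative lengthening of telomeres (ALT), and all groups shared the U87-T background. Each knockout was sequenced in a series with WT libraries of its own, giving 8 groups of 3 libraries: WT and KO cells, untreated (control) or with etoposide, once for DAXX and once for ATRX (the DAXX series and the ATRX series). The etoposide dose and time of these libraries are not given in the sources used here. With 1 clone per knockout, the effect of the deleted gene and that of the clone cannot be told apart. The study describes its replication in general as biological, but the labels do not say whether the libraries of a group came from separate cultures, and if they did not, the p-values measure the spread between libraries only.

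Library totals ran from 6928950 to 13298557 counts. DAXX averaged 34.5 CPM (counts scaled to a common library size, with TMM factors) in WT control libraries of its series and 5.93 in DAXX_KO, and ATRX averaged 190 CPM in WT and 79.4 in ATRX_KO. CDKN1A, the p53 target that encodes p21, went from 152 to 5662 CPM with etoposide in WT of the DAXX series, from 157 to 5893 in the other WT libraries, from 213 to 5777 in DAXX_KO, and from 209 to 2750 in ATRX_KO. The glioblastoma markers VIM, CD44 and NES were counted in every library, the glial markers GFAP and OLIG2 stayed at or below 1.67 CPM, and S100B was at 0 in all 24. The markers moved with the groups: in control cells 5 of 6 tested were lower in DAXX_KO than in WT, where 26.6% of all genes were, and 7 of 8 in ATRX_KO, where 21.0% were. SOX2, a neural stem cell factor, averaged 4.22 CPM in control WT of the ATRX series and 0.111 in control ATRX_KO. VIM went from 5803 to 2618 CPM with etoposide in WT of the DAXX series and from 5546 to 1971 in WT of the ATRX series, and CD44 and NES fell in both. The part of these shifts in the members' values was not tested. The leukocyte marker PTPRC and the epithelial marker EPCAM stayed at or below 2.65 CPM, and the epithelial marker KRT8 lay between 3.79 and 29.6.

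RNA polymerase III makes short, abundant RNAs and stops at runs of T, so that its transcripts end in a few U and, unlike messenger RNA, generally carry no poly(A) tail. RN7SL1, RN7SL2 and RN7SL3 encode 7SL RNA, the scaffold of the signal recognition particle (SRP) that brings ribosomes making secreted proteins to the endoplasmic reticulum. RN7SK encodes 7SK RNA, which with HEXIM1 holds the elongation kinase P-TEFb inactive, RMRP and RPPH1 encode the RNA parts of RNase MRP and RNase P, which process ribosomal and transfer RNA precursors, and VTRNA1-1 is an RNA of the vault particle. BCYRN1 (BC200 RNA) is a primate RNA of Alu origin known as a translational regulator in neurons and reported in many tumour cells. The libraries were made with the QuantSeq 3′ kit, which starts reverse transcription with oligo-dT at stretches of A.

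The members differ in A content and share sequence, as read from the GRCh37 genome in the sense of the transcript. Positions and lengths are those of the GENCODE annotation. The gene model of BCYRN1 in the authors' Ensembl annotation is not known here, so its sequence values may not be those of the feature counted. BCYRN1, of 200 bases, held an A-rich stretch in which 33 of 40 bases were A, with a longest run of 11. The longest run of A was 4 in RN7SL2 and RN7SL3 (297 bases each), and 3 in RN7SK (331 bases) and VTRNA1-1 (99 bases). RN7SL2 and RN7SL3 were identical at 286 of 297 positions (96.3%), with 11 substitutions and a longest shared run of 123 bases. The Alu-related start of BCYRN1 matched that of RN7SL2 at 72 of 82 aligned positions (87.8%). A run of TTTT lay between 10 bases before and 30 bases after the annotated 3′ end of 5 of the 5 members with an ID, and of 32.4% of all annotated genes.

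Exact copies elsewhere in the genome bear on the counts of 4 of the 5 members with an ID. At the read length of 75 bases, 123 of 126 windows of BCYRN1 occurred elsewhere in the genome without a mismatch, at 21 other loci in all. The same held for 190 of 223 windows of RN7SL2, 49 of 223 of RN7SL3 and 163 of 257 of RN7SK (chr6:52860418-52860748, plus strand), but for 0 of 25 of VTRNA1-1 (chr5:140090860-140090958, plus strand). The authors' program RSEM divides a read that fits several annotated transcripts among them by estimation, so counts of BCYRN1, RN7SL2, RN7SL3 and RN7SK are uncertain as to locus. BCYRN1 also lies within the antisense gene EPCAM-DT, and whether counting used the strand is not given in the sources used here.

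BCYRN1 took between 3.08% and 12.1% of all counts of a library. In WT of the DAXX series its share was 4.82%, 6.52% and 7.12% in the control libraries, and 12.1%, 11.6% and 12.1% with etoposide. In DAXX_KO it was 5.26%, 4.54% and 5.83% in control and 9.68%, 8.44% and 10.1% with etoposide. The treated libraries were thus above all control libraries in both genotypes, and the treated DAXX_KO libraries were below the treated WT libraries.

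In WT of the ATRX series the BCYRN1 share was 3.81%, 4.60% and 5.43% in control and 9.24%, 9.45% and 9.68% with etoposide. In ATRX_KO it was 4.20%, 3.08% and 3.52% in control and 5.11%, 4.36% and 4.54% with etoposide. All 3 treated ATRX_KO libraries lay within the range of the untreated WT libraries of that series. On the CPM scale, treated and control ATRX_KO libraries overlapped slightly, at 40599 and 40749 CPM. By mean CPM the 8 groups ran from 126127 ± 3086 (SD, n = 3) in treated WT of the DAXX series to 35421 ± 5024 in untreated ATRX_KO. Treated WT of the DAXX series stood apart from the next group, treated DAXX_KO and treated WT of the ATRX series overlapped (94590 ± 9128 and 93736 ± 2401), and the lower 5 groups each overlapped with their neighbour.

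**Figure D1:**
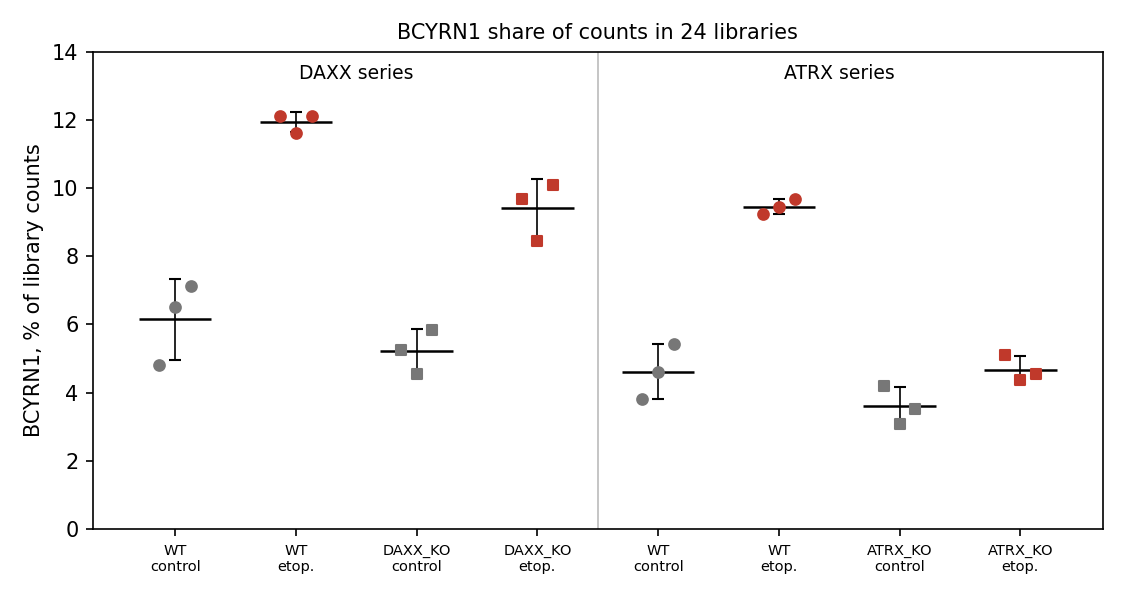
BCYRN1 counts as a percentage of all counts (y axis) in each of the 24 libraries, by group (x axis); circles are WT and squares KO, grey is control and red etoposide, and black lines are the mean with 1 SD over 3 libraries. Treated WT libraries sit at 11.6% to 12.1% (DAXX series) and 9.24% to 9.68% (ATRX series), and treated ATRX_KO libraries at 4.36% to 5.11%.

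RN7SL2, the 7SL copy with the higher counts of the pair, was at 43.5, 57.4 and 57.6 CPM in control WT of the DAXX series and at 95.4, 115 and 94.8 with etoposide. In DAXX_KO it was at 49, 45.9 and 58 CPM in control and at 125, 130 and 147 with etoposide, the highest group of the 8 and apart from the next. RN7SL2 of the ATRX series was at 28, 44.3 and 36.5 CPM in control WT and at 95, 83.8 and 89.9 in treated WT. In ATRX_KO it was at 30.7, 25.2 and 23 CPM in control and at 39.8, 29.7 and 34.6 with etoposide, so that the treated and control libraries overlapped. Treated ATRX_KO (34.7 ± 5.05 CPM) and untreated WT of that series (36.3 ± 8.16 CPM) were neighbours in the order of groups and overlapped.

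RN7SL3 followed at lower levels. It was at 5.75, 11.1 and 14.2 CPM in control WT of the DAXX series and at 24.6, 28.3 and 27.4 with etoposide. In DAXX_KO it was at 8.4, 9.39 and 11 CPM in control and at 28.9, 35.3 and 35.3 with etoposide. The treated libraries lay above the control libraries in both genotypes, and treated DAXX_KO again formed the highest group, above treated WT. RN7SL3 of the ATRX series was at 4.38, 7.7 and 6.23 CPM in control WT and at 23.8, 19.2 and 22.9 in treated WT. In ATRX_KO it was at 7.77, 4.72 and 6.04 CPM in control and at 15, 12.8 and 9.36 with etoposide, the treated libraries lying above the control libraries and below those of treated WT.

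RN7SK, the RNA that restrains P-TEFb, was at 6.26, 6.68 and 6.73 CPM in control WT of the DAXX series and at 19, 16.2 and 21.5 with etoposide. In DAXX_KO it was at 9.29, 8.32 and 8.69 CPM in control and at 18.9, 18.4 and 15.2 with etoposide. The control DAXX_KO libraries were above all control WT libraries, and the treated groups overlapped. RN7SK of the ATRX series was at 4.3, 7.03 and 4.8 CPM in control WT and at 19.7, 17.9 and 20.8 in treated WT. In ATRX_KO it was at 4.19, 3.56 and 5.49 CPM in control and at 16.2, 10.4 and 10.9 with etoposide. For RN7SK the 4 treated groups, at means of 12.5 to 19.4 CPM, came before the 4 control groups, at 4.41 to 8.77, while each treated group overlapped with the next treated one.

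Some of the spread between libraries was common to the members. Replicate 1 had the lowest BCYRN1 share and the lowest RN7SL2, RN7SL3 and RN7SK CPM of the 3 WT control libraries in both series, and replicate 1 of treated ATRX_KO had the highest of its 3 libraries for all 4. VTRNA1-1 had 0 to 6 counts per library and at least 1 in 20 of 24, close to the 3 counts taken as the limit of detection (0.215 to 0.407 CPM), and every neighbouring pair of groups overlapped. Levels were also taken per kilobase of GENCODE gene length, which for BCYRN1 may differ from the gene model used for counting. The median over the 24 libraries was 277028 CPM for BCYRN1, 179 for RN7SL2, 40.4 for RN7SL3, 29.7 for RN7SK and 2.42 for VTRNA1-1.

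**Figure D2:**
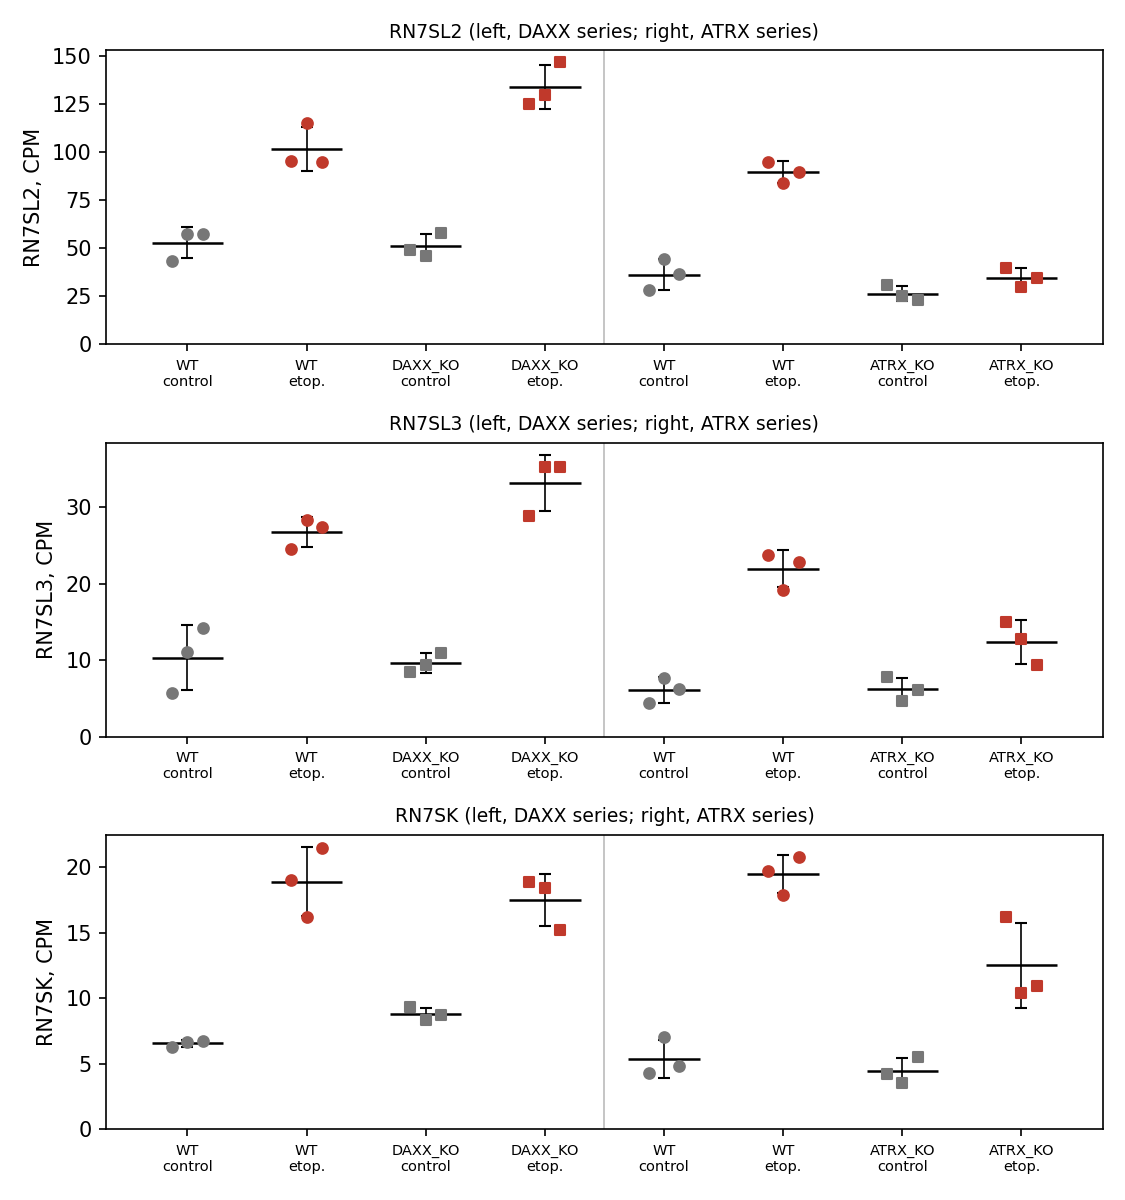
CPM (TMM-scaled counts, linear y axes from 0) of RN7SL2, RN7SL3 and RN7SK in each library by group; circles are WT and squares KO, grey is control and red etoposide, and black lines are the mean with 1 SD over 3 libraries. RN7SL2 is highest in treated DAXX_KO (125 to 147 CPM) and treated ATRX_KO overlaps with untreated ATRX_KO, whereas RN7SK is higher with etoposide in all 4 genotype and series pairs.

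The first comparison was the response of WT cells to etoposide. BCYRN1 differed by a log2 fold change of 0.95 (SE 0.11) in WT libraries of the DAXX series and of 1.00 (SE 0.12) in those of the ATRX series, given without a test because this response was known when the genes were chosen. RN7SL2 rose 1.95-fold in the DAXX series (log2 fold change 0.96, SE 0.11, edgeR adjusted p = 4.59e-07) and, in WT of the ATRX series, 2.51-fold (1.33, SE 0.14, edgeR adjusted p = 4.73e-07). RN7SL3 rose 2.65-fold and 3.66-fold in the same order, with log2 fold changes of 1.41 (SE 0.20) and 1.87 (SE 0.22). RN7SK rose most in the DAXX series, 2.91-fold (log2 1.54, SE 0.15, edgeR adjusted p = 2.59e-08), and 3.67-fold in its ATRX counterpart (log2 1.88, SE 0.21). Leaving BCYRN1 aside, 3 of 3 members passed as higher in each series, where 29.6% of all 15247 genes tested passed as higher for DAXX and 31.7% of 16371 for ATRX. Their median log2 fold change was 1.41 and 1.87, against 0.02 and 0.07 over all genes tested. RN7SL2 and RN7SL3 share sequence, so the count is not that of 3 independent genes.

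The second comparison was the response of the knockout cells. In DAXX_KO, 4 of 4 members rose with etoposide, where 26.8% of all genes tested did. BCYRN1 rose 1.94-fold (log2 0.96, SE 0.11, edgeR adjusted p = 5.28e-07), RN7SL2 2.64-fold (log2 1.40, SE 0.11), RN7SL3 3.47-fold (log2 1.79, SE 0.20) and RN7SK 2.00-fold (log2 1.00, SE 0.14). In ATRX_KO, 4 of 4 also passed, where 24.3% of all genes did, but the changes of BCYRN1 and RN7SL2 were small. BCYRN1 rose 1.24-fold (log2 0.31, SE 0.11, edgeR adjusted p = 0.0351) and RN7SL2 1.31-fold (log2 0.39, SE 0.15, edgeR adjusted p = 0.042). Both calls were lost without replicate 2 or 3 of control ATRX_KO, or without replicate 1 of treated ATRX_KO, which left 2 of 4 members called, and that of RN7SL2 also without replicate 3 of control WT, 1 or 3 of treated WT or 3 of treated ATRX_KO. RN7SL3 rose 1.99-fold (log2 0.99, SE 0.22, edgeR adjusted p = 0.00121) and RN7SK 2.79-fold (log2 1.48, SE 0.22, edgeR adjusted p = 2.57e-05).

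Whether the response of the knockout differed from that of WT was tested by the interaction term. In the ATRX series the response of RN7SL2 was smaller in ATRX_KO by 0.94 on the log2 scale (interaction -0.94, SE 0.21, edgeR adjusted p = 0.00575), and that of BCYRN1 by 0.70 (interaction -0.70, SE 0.16, edgeR adjusted p = 0.00812). The WT response that enters the BCYRN1 term was known for the DAXX series before the genes were chosen. RN7SL3 was at -0.88 (SE 0.31) and did not pass (edgeR adjusted p = 0.0637), and RN7SK was at -0.40 (SE 0.30, edgeR adjusted p = 0.416). Thus 2 of 4 members passed as lower, where 7.64% of all genes tested did. BCYRN1 is 1 of these 2, and because its response in WT was known beforehand, its part in the count is no support. RN7SL3 passed as well by DESeq2 (-0.86), with no filter on low counts (-0.88) or without replicate 2 of control WT, 2 of control ATRX_KO or 1 of treated ATRX_KO. CDKN1A, which had 2750 CPM in treated ATRX_KO and 5893 in treated WT, had an interaction of -1.55 (SE 0.09) in the ATRX series. In the DAXX series, where 0 members passed, its interaction was lower as well (-0.47, SE 0.08, edgeR adjusted p = 0.000856), and its relation to the members was not tested.

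In the DAXX series 0 of 4 members passed the interaction test, where 14.2% of all genes passed in either direction. BCYRN1 had an interaction of 0.00 with a 95% interval from -0.30 to 0.31. RN7SL2 was at 0.44 (SE 0.16, edgeR adjusted p = 0.0786) and RN7SK at -0.54 (SE 0.21, edgeR adjusted p = 0.0947), the 2 members under 0.05 before adjustment, and RN7SL3 was at 0.39 (SE 0.29). By DESeq2 0 members passed as well. Without replicate 1 of control WT 2 members passed, RN7SL2 at 0.56 and RN7SL3 at 0.69, and RN7SL2 passed alone without replicate 2 of treated WT or replicate 3 of control DAXX_KO (0.53 in both).

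**Figure D3:**
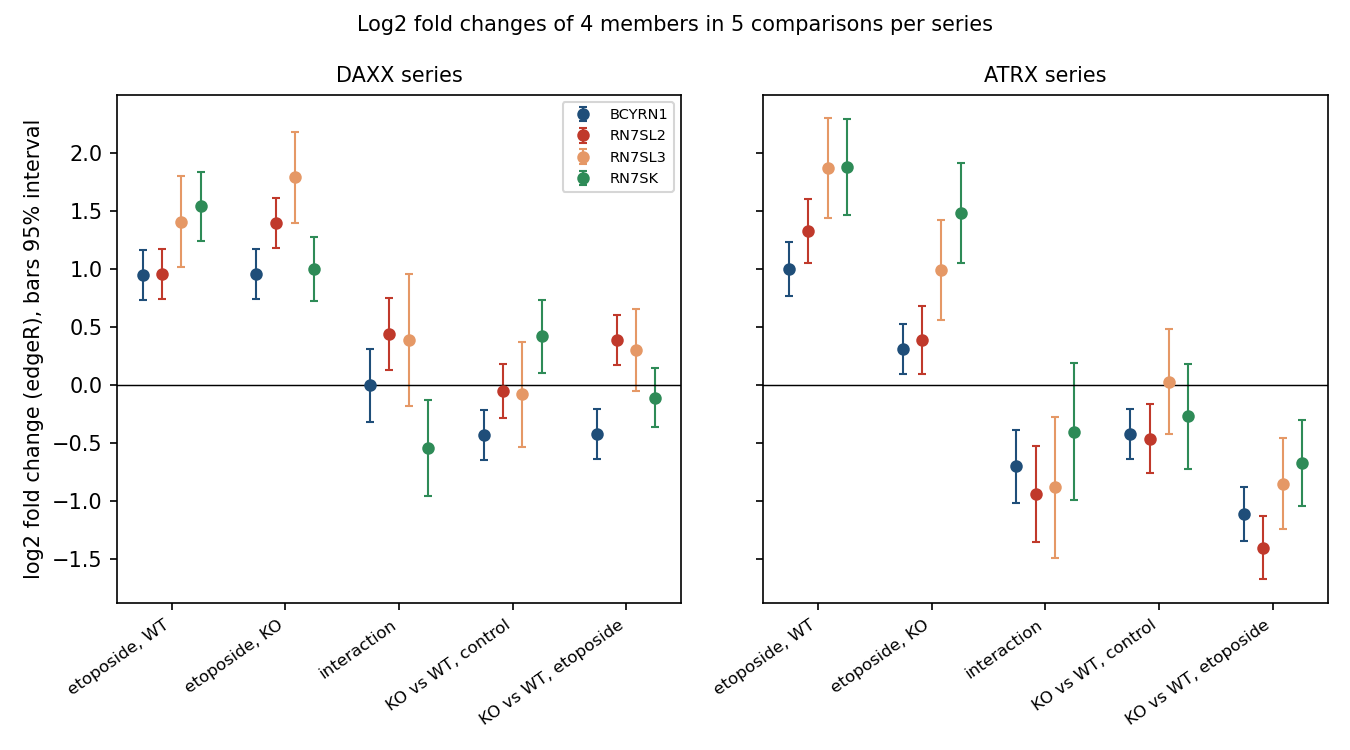
Log2 fold changes from edgeR (y axis) of BCYRN1, RN7SL2, RN7SL3 and RN7SK in 5 comparisons of the DAXX series (left) and the ATRX series (right), with bars of the 95% interval from fits over 12 libraries each. In the ATRX series all 4 interaction values are below 0, from -0.94 to -0.40, and in the DAXX series they range from -0.54 to 0.44.

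The third comparison was of knockout with WT cells in the same condition. In control cells, BCYRN1 was 1.34-fold lower in DAXX_KO (log2 -0.43, SE 0.11, edgeR adjusted p = 0.00296) and 1.34-fold lower in ATRX_KO (log2 -0.42, SE 0.11, edgeR adjusted p = 0.00743), although the libraries of both genotypes overlapped. RN7SK was 1.34-fold higher in control DAXX_KO (log2 0.42, SE 0.16, edgeR adjusted p = 0.0333), and RN7SL2 was 1.37-fold lower in control ATRX_KO (log2 -0.46, SE 0.15, edgeR adjusted p = 0.0218). This gave 2 of 4 members called in each series, where 53.4% of all genes were called for DAXX_KO and 41.8% for ATRX_KO. In the DAXX series the call of RN7SK was lost by DESeq2, with RLE factors, with no filter on low counts and in the model of all 24 libraries, and that of BCYRN1 with library totals alone, each leaving 1 member. Both counts also depended on single libraries: 1 member was left without any of WT control replicates 1, 2 and 3 or DAXX_KO control replicates 1 and 3 in the DAXX series (RN7SK lost), and without WT control replicate 2 or 3 or ATRX_KO control replicate 2 or 3 in the ATRX series (RN7SL2 lost, or BCYRN1 without WT control replicate 3).

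With etoposide the 2 knockouts differed from WT in unlike ways. In treated ATRX_KO 4 of 4 members were lower than in treated WT, where 22.9% of all genes were. BCYRN1, chosen with its response in WT of the DAXX series known, is in this count and in that of treated DAXX_KO. RN7SL2 and RN7SL3 share sequence, so the members counted are not independent. RN7SL2 was 2.64-fold lower (log2 -1.40, SE 0.14, edgeR adjusted p = 6.32e-07), BCYRN1 2.16-fold lower (log2 -1.11, SE 0.12, edgeR adjusted p = 7.03e-07), RN7SL3 1.81-fold lower (log2 -0.85, SE 0.20) and RN7SK 1.59-fold lower (log2 -0.67, SE 0.19, edgeR adjusted p = 0.00898, not passing without replicate 2 of treated ATRX_KO). In treated DAXX_KO 2 of 4 members differed, where 53.0% of all genes did: BCYRN1 was 1.34-fold lower (log2 -0.42, SE 0.11, edgeR adjusted p = 0.00328) and RN7SL2 1.31-fold higher (log2 0.39, SE 0.11, edgeR adjusted p = 0.00491). RN7SL3 was at 0.30 (SE 0.18) and RN7SK at -0.11 (SE 0.13) and did not pass, though RN7SL3 did with only the compared groups in the fit or without replicate 1 of control WT.

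The difference between the series was then tested in a model over all 24 libraries, as the ATRX value minus the DAXX value. The interaction of RN7SL2 was lower in the ATRX series by 1.35 on the log2 scale (-1.35, SE 0.28, edgeR adjusted p = 0.0068), the 1 call among 4 members, where 3.00% of all genes were called. RN7SL3 (-1.25, SE 0.46, edgeR adjusted p = 0.143) and BCYRN1 (-0.68, SE 0.25, edgeR adjusted p = 0.153) did not pass, and RN7SK was at 0.16 (SE 0.37). Without replicate 1 of control WT of the DAXX series 3 members were called. For the WT response to etoposide 0 of 4 members differed between the series, where 3.15% of all genes did, with values from 0.04 for BCYRN1 to 0.46 for RN7SL3. For the knockout effect in control cells 0 of 4 differed, where 34.1% of all genes did, with RN7SK at -0.70 (SE 0.29, edgeR adjusted p = 0.0645). At an unadjusted edgeR p under 0.05, 1 member (RN7SK) differed in the knockout effect and 0 in the WT response, and DESeq2 called 0 in both comparisons. Without replicate 1 of control WT of the ATRX series 2 members, RN7SL2 and RN7SK, differed in the knockout effect in control cells, and RN7SK differed without replicate 3 of control ATRX_KO or replicate 1 of treated ATRX_KO. Knockout gene and series cannot be told apart in this test beyond each knockout being set against the WT libraries of its own series.

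Since RN7SL2 and RN7SL3 share reads with their many copies, the family was also summed, as far as its genes had a matching ID. RN7SL1 had none and is in neither of the sums below. The 845 annotated RN7SL pseudogenes took 0.0716% to 0.124% of library counts, more than RN7SL2 and RN7SL3 together (0.00294% to 0.018%), and 373 of them had no count in any library. Of the pseudogenes tested in WT, 29 of 115 rose and 5 fell with etoposide in the DAXX series, and 49 of 138 rose and 5 fell in the ATRX series, with medians of 0.22 and 0.45 on the log2 scale. Over all genes, 29.6% rose and 30.6% fell in the DAXX series and 31.7% and 29.8% in the ATRX series, so that the rises of the pseudogenes were near the background and their falls fewer. RN7SL2 and RN7SL3 summed gave log2 fold changes with etoposide of 1.04 and 1.42 in WT, 1.47 in DAXX_KO and 0.52 in ATRX_KO. With the pseudogenes added, the sum gave 0.36 (SE 0.08) and 0.52 (SE 0.07) in WT, 0.26 (SE 0.08) in DAXX_KO and 0.17 (SE 0.07, edgeR adjusted p = 0.0672) in ATRX_KO. In the ATRX series its interaction was -0.35 (SE 0.10, edgeR adjusted p = 0.033), in the direction of RN7SL2 alone. In the DAXX series its interaction was -0.09 (SE 0.11), opposite in sign to the 0.44 of RN7SL2, and the difference in interaction between the series was -0.23 (SE 0.16, edgeR adjusted p = 0.502), against the -1.35 called for RN7SL2. Against treated WT, the sum was at 0.06 (edgeR adjusted p = 0.586) in treated DAXX_KO and at -0.15 (edgeR adjusted p = 0.118) in treated ATRX_KO, so neither call of RN7SL2 held for it. The direction turned for knockout against WT in control cells, where the sum with pseudogenes was higher in ATRX_KO (0.20, SE 0.07, edgeR adjusted p = 0.0384) while RN7SL2 was lower.

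Other RNA polymerase III transcripts were set beside the members, without a test between the lists. Of 13 listed (Y RNAs, which bind the Ro protein, further vault RNAs, and U6 and U6atac spliceosomal RNAs), 10 were tested in each series, and 0 rose with etoposide in WT of either series by edgeR, also at an unadjusted p under 0.05, or by DESeq2. RNY4 fell in WT of the DAXX series (log2 -1.44), and RNY4 (-1.47) and RNY1 (-1.15) fell in WT of the ATRX series. Over all genes, 29.6% rose and 30.6% fell in WT of the DAXX series, and 31.7% and 29.8% in WT of the ATRX series. The list median was -0.23 and 0.14, while VTRNA1-1 itself had too few counts to test. In ATRX_KO 5 of 10 fell with etoposide, where 25.2% of all genes did, led by RNY3 (-2.22) and RNY4 (-1.73). In knockout against WT, 6 of 10 were lower in ATRX_KO in control (21.0% of all genes) and 6 of 10 with etoposide (22.9%), among them VTRNA1-3 (-1.50), RNY5 (-1.49) and VTRNA2-1 (-1.47) with etoposide, and 5 of 10 and 4 of 10 were lower in DAXX_KO (26.6% and 25.2% of all genes). In treated ATRX_KO against treated WT their median was -1.13, and that of the 4 members -0.98. The gene copies RNU6-1, RNU6-2 and RNU6-9 had the same fitted values and count as 3 of the calls in each comparison of knockout with WT. All 13 together had only 170 to 563 counts per library. Of the small nuclear and nucleolar RNAs made by RNA polymerase II, 6 were tested, and in WT 2 rose in the DAXX series (RNU4ATAC at 0.39 and SNORD3A at 0.32) and 0 in the ATRX series, also at an unadjusted p under 0.05 or by DESeq2, which called 1 in the DAXX series. The edgeR counts stand against 29.6% and 31.7% of all genes that rose.

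Of 31 subunits and factors of the RNA polymerase III machinery, 10 rose and 9 fell with etoposide in WT of the DAXX series, where 29.6% of all genes rose and 30.6% fell. In WT of the ATRX series 13 rose and 10 fell, where 31.7% and 29.8% of all genes did, so these counts were near the background. BRF2, the TFIIIB subunit for genes with an upstream promoter such as RN7SK and the U6 genes, rose by 1.77 and 2.20 on the log2 scale. SNAPC1 and SNAPC5, subunits of the SNAPc complex that binds those promoters, rose by 0.83 and 2.61 and by 1.45 and 1.02. The polymerase subunit POLR3G fell by 1.09 in the DAXX series. The ATRX interaction was lower for 7 of 31 genes and higher for 1, against 7.64% and 8.36% of all genes, the lower ones including the subunits POLR3C (-0.94), POLR3A (-0.72) and POLR3D (-0.56). POLR3D was also lower in ATRX_KO than in WT with etoposide (-1.30).

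Among the protein partners, HEXIM1 (7SK-bound P-TEFb inhibitor) rose with etoposide in WT by 1.09 and 1.31 on the log2 scale, and CCNT1, the cyclin of P-TEFb, by 0.75 and 0.92. They were the 2 genes of 7 called in each series, where 29.6% and 31.7% of all genes rose, so this count was near the background. Of the 8 SRP proteins and receptor subunits, 3 rose and 2 fell in WT of the DAXX series and 4 rose and 1 fell in the ATRX series, where 29.6% and 30.6%, and 31.7% and 29.8%, of all genes did. SRP14 rose (0.58 and 0.77), and SRP72 fell (-0.90 and -0.96). SRP9, which with SRP14 binds the Alu end of 7SL and BCYRN1, was lower in both knockouts in control (-1.19 in DAXX_KO, -0.94 in ATRX_KO) and with etoposide (-1.36 and -1.06). SRP68 was lower in both as well, by -1.37 and -0.48 in control and -1.22 and -1.05 with etoposide. Of the 8, 5 were lower and 0 higher in control DAXX_KO, and 5 and 1 with etoposide, where 26.6% and 25.2% of all genes were lower. In ATRX_KO 2 were lower and 0 higher in control, and 4 and 4 with etoposide, where 21.0% and 22.9% of all genes were lower. With etoposide, 3767 of all 16371 genes tested were higher in ATRX_KO. Of the RNase P and MRP proteins, 2 of 10 rose and 4 fell in WT of the DAXX series, led by RPP25L (0.98) and RPP30 (-0.86), where 29.6% and 30.6% of all genes did. In WT of the ATRX series 2 of 11 rose and 4 fell, led by RPP40 (-1.25), where 31.7% and 29.8% of all genes did. Of the 3 vault proteins, TEP1, which vaults share with telomerase, rose by 0.97 and 1.53, while PARP4 fell (-0.99 and -0.56).

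**Figure D4:**
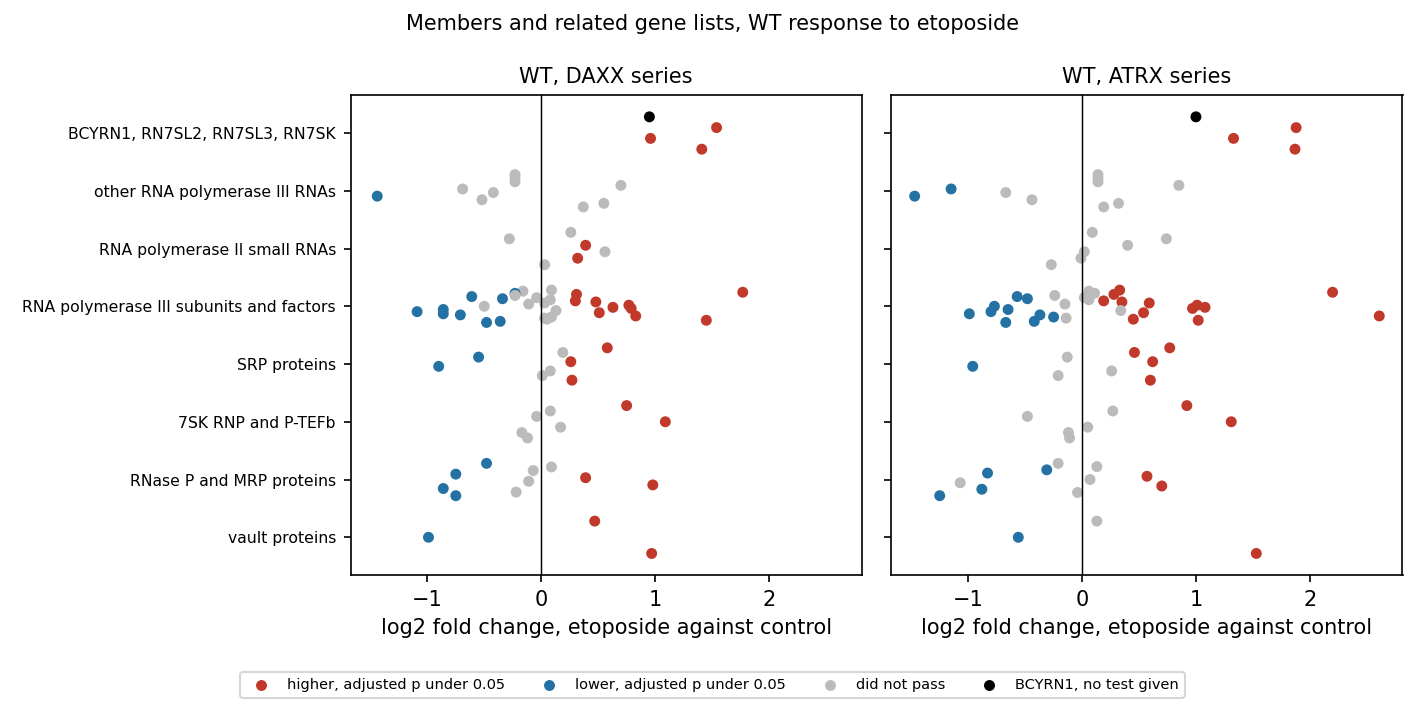
Log2 fold change with etoposide in WT cells (x axis, edgeR) of each gene of the lists named on the y axis, in the DAXX series (left) and the ATRX series (right); points are genes, red and blue passed at an adjusted p under 0.05 as higher or lower, grey did not pass, and black is BCYRN1, given without a test. The members lie between 0.95 and 1.88. None of the 10 other RNA polymerase III RNAs tested passed as higher in either series, where 29.6% (DAXX) and 31.7% (ATRX) of all genes did.

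The genes whose levels ran most like each member were found by Pearson correlation of log2(CPM + 1) over the 24 libraries among 15039 genes, as a description only, since the libraries fall into the same 8 groups for every gene. For BCYRN1 they were CARS1 (r = 0.954), NDUFB10 (0.949) and ENSG00000258486 (0.940), an ID with no symbol matched. For RN7SL2 they were ENSG00000258486 (0.989), RTF2 (0.964) and NDUFS3 (0.952). For RN7SL3 they were CROCCP3 (0.949), DNASE1 (0.942) and PKP2 (0.936), and for RN7SK RFK (0.967), SH3BGR (0.958) and AKR1B10 (0.956). Between members, r was from 0.794 (BCYRN1 and RN7SK) to 0.926 (BCYRN1 and RN7SL2). Whether ENSG00000258486 belongs to RN7SL1, RMRP or RPPH1, the members with no ID matched, was not checked.

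The values are shares of what the libraries captured. In bulk RNA, fewer cells that express a gene and less of its RNA per cell cannot be told apart. The libraries carry no molecular identifiers, so counts are not counts of molecules, and the part of priming at internal stretches of A in these values was not tested.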

How the data were processed

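QuantSeq 3′ libraries of U87-T cells were sequenced as 75-base single-end reads. According to the methods, the authors aligned reads with STAR to hg19 and estimated counts with RSEM on the Ensembl GRCh37 annotation. The deposited values are expected counts per gene, not normalized, and all were whole numbers. Gene IDs were matched to GENCODE symbols on GRCh37 (55501 of 57736 IDs, holding 98.78% of counts). ENSG IDs without a symbol stayed in the fits. Mitochondrial transcripts were not analysed here.

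Counts were fitted with edgeR 4.0.16 (quasi-likelihood test, TMM, low counts removed by filterByExpr at its settings of 10 per library and 15 in total) over the 12 libraries and 4 groups of each series, and over all 24 libraries and 8 groups for differences between series. P-values were adjusted by Benjamini-Hochberg over all genes tested, at a threshold of 0.05. SE is the absolute log2 fold change divided by the square root of F. CPM used TMM factors over 24 libraries (0.921 to 1.08). Library totals were 6928950 to 13298557, and 3 counts correspond to 0.215 to 0.407 CPM. The common biological coefficients of variation were 0.0825 (DAXX) and 0.106 (ATRX). All 24 pairs of replicates differed by more than sampling noise (chi-square per degree of freedom 2.16 to 17.1). The fit was tested on simulated data.

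Groups followed sample titles. The genotype label of the DAXX_KO samples names the other gene, and their titles were followed.

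All members are named. From each list, genes with the largest absolute log2 fold change among those called (at most 5) were named. The value of SNAPC1 in the DAXX series fell outside that rule and was chosen after it was seen. Some items are not reported here. Members and lists were chosen with earlier results of these data known. Alternatives tried were DESeq2 1.42.0, RLE factors, library totals, BCYRN1 left out of totals and TMM, other filters, other sets of libraries, the replicate block, RN7SL2 and RN7SL3 summed, and each library left out. The sum with RN7SL pseudogenes was added after seeing the data. Sequences were read from the GRCh37 genome with Biopython 1.88.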

Additional observations from a re-analysis of the deposited data

Results flagged for a closer look

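The response to etoposide differed between ATRX_KO and WT for BCYRN1 (interaction -0.70 on the log2 scale) and RN7SL2 (-0.94), each by an edgeR interaction test. The response of BCYRN1 in WT of the DAXX series was known when the genes were chosen. For RN7SL2 this difference itself differed between the ATRX and DAXX series, by -1.35 in the test over 24 libraries, while the sum of RN7SL2, RN7SL3 and the RN7SL pseudogenes gave -0.23 (edgeR adjusted p = 0.502). In treated ATRX_KO the libraries of both RNAs overlapped with those of untreated WT, and in treated DAXX_KO RN7SL2 was above treated WT. No test for a single outlying library was made within groups of 3.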

How the results depend on the processing

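The count of members that passed was within 1.5 times that reported in most alternatives, and in 13 of 13 comparisons with BCYRN1 left out of library totals and TMM, which also kept direction and call for 52 of 52 member fold changes. Members called in control DAXX_KO against WT went from 2 to 1 under DESeq2, RLE factors, library totals, no filter and the model of all 24 libraries. In the DAXX interaction 1 member was called with library totals or no filter in place of 0. Summing RN7SL2 and RN7SL3 left 1 call in control ATRX_KO against WT. With pseudogenes added to the sum, 1 was called in treated DAXX_KO against WT, 2 in treated ATRX_KO against WT, 2 for etoposide in ATRX_KO and 0 for the difference in interaction between series, partly because fewer features were tested. For the knockout effect between series 2 were called with library totals and 1 with at least 10 counts in every library, and for the interaction between series 3 with no filter. The cause was not tested.

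With pseudogenes added to the sum of RN7SL2 and RN7SL3, the direction turned from -0.38 to 0.20 in control ATRX_KO against WT, from -0.05 to 0.15 in control DAXX_KO, from 0.43 to -0.09 in the DAXX interaction and from -0.33 to 0.05 in the knockout effect between series. With library totals, control DAXX_KO against WT was 0.14 for RN7SL2 and 0.10 for RN7SL3, the DAXX interaction of BCYRN1 was -0.11, and the knockout effect between series was -0.12 for BCYRN1 and -0.01 for RN7SL3. With at least 10 counts in every library, BCYRN1 was at -0.03 in the DAXX interaction and -0.01 in the knockout effect between series.

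Leaving out each library gave 1 to 2 members called in control DAXX_KO against WT, 2 to 3 with etoposide, 4 to 4 for etoposide in WT (BCYRN1 counted) and in DAXX_KO, and 0 to 2 for the interaction. In the ATRX series it gave 1 to 2, 3 to 4, 4 to 4 in WT, 2 to 4 in ATRX_KO and 2 to 3, and between series 0 to 2, 0 to 0 and 1 to 3. The counts for etoposide in WT include BCYRN1, whose response was known when the genes were chosen, and its part in them is no support. Fold changes that turned ranged from -0.17 to 0.03 for RN7SL2 and -0.39 to 0.21 for RN7SL3 in control DAXX_KO, -0.12 to 0.16 for BCYRN1 in the DAXX interaction, -0.16 to 0.23 for RN7SL3 in control ATRX_KO, and, between series, -0.11 to 0.17 for BCYRN1 and -0.16 to 0.43 for RN7SL3 in the knockout effect, -0.12 to 0.16 for BCYRN1 in the WT response and -0.09 to 0.35 for RN7SK in the interaction.

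Replicates with the same number did not deviate together (36 correlations from -0.419 to 0.146, with 3 of 24 libraries closest to their own number), so the numbers were not taken as pairs. With the replicate block 3 members in place of 4 were called for etoposide in ATRX_KO, 2, 2, 4, 4 and 0 in the DAXX series and 2, 4, 4 and 2 in the other ATRX comparisons, and BCYRN1 was at -0.00 in the DAXX interaction and in the knockout effect between series. The counts for etoposide in WT again include BCYRN1, whose response was known beforehand. Shares of RN7SL2, RN7SL3, RN7SK and VTRNA1-1 taken over library totals less BCYRN1 moved by more than 1 SD in 7 of 32 groups. RN7SL1, RMRP and RPPH1 were not analysed, and alternatives for VTRNA1-1 gave no test because of its 0 to 6 counts.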
